A study of Rattus norvegicus and Mus musculus with 34 samples.

Results

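The 9 genes described here handle iron, zinc and related metals: the iron exporter Slc40a1, the metal importers Slc39a8, Slc39a14 and Slc11a1, the heme-degrading enzyme Hmox1, the transferrin receptor Tfrc, the ferritin heavy chain Fth1, the siderophore-binding protein Lcn2 and the metallothionein Mt1. They were taken by gene symbol, 9 of 20022 genes in the rat tables and 9 of 51912 genes in the mouse table. They were selected on their measured levels and fold changes in the comparisons below, so these fold changes and their adjusted p-values are given as a description of genes that were picked. The rats were male WT Sprague-Dawley rats of 6 to 8 weeks with a periodontal bone defect of the mandible, sampled at day 3, 7 or 14. In the sensory nerve+ (SN+) group the inferior alveolar nerve was left intact, and in the sensory nerve− (SN−) group it was cut to remove sensory input. Each group held 4 rats at each day, except SN+ at day 3, which held 3. Every rat carried the defect, and no uninjured tissue was among the samples, so a level at day 3 has no baseline here. The SN− rats of day 7 stood in a separate table that held no SN+ rat, so that at day 7 the table and the transection cannot be told apart. The SN− rats of days 3 and 14 stood in the main table, so that in each SN− comparison with day 7 the table and the day cannot be told apart either. In vitro, RAW264.7, a mouse macrophage cell line, received 100 ng/ml LPS for 6 h without (n = 6) or with (n = 5) 10 nM CGRP, a neuropeptide of sensory nerves, and no culture without LPS was among the samples.

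Iron enters most cells bound to transferrin through Tfrc, is stored in a shell of ferritin heavy and light chains, and leaves through Slc40a1 (ferroportin), the known cellular iron exporter. Macrophages that take up red blood cells free the iron of heme with Hmox1 (heme oxygenase-1) and then store or export it, and in a wound with bleeding this is a main route of iron. Slc11a1 (NRAMP1) moves metal ions out of the phagosome of macrophages, Slc39a8 (ZIP8) and Slc39a14 (ZIP14) carry zinc, iron and manganese into the cytosol, Mt1 binds zinc and copper, and Lcn2 from neutrophils keeps iron from bacteria by binding their siderophores.

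Iron-regulatory proteins bind a short RNA hairpin, the iron-responsive element, and set ferritin, ferroportin and transferrin receptor levels after transcription, which a count of mRNA sees only in part. The hairpins are shown because they are the shared control that links 3 of the 9 genes. In the mouse transcripts of GENCODE vM21 (GRCm38), a search was made for a C, 5 bases, a 6-base loop of CAG followed by T or A, by G and by A, C or T, and 5 bases that pair fully with the first 5, with at least 4 of 5 further pairs below. It found a match in 62 of 55341 genes (0.112%), and among the 9 genes in Fth1, Slc40a1 and Tfrc. Each site is 27 bases, 5′ to 3′ on the transcript, with the loop in capitals. The Fth1 site lies in the 5′ UTR at chr19:9982733-9982759 on the plus strand, and the Slc40a1 site in the 5′ UTR at chr1:45925466-45925492 on the minus strand. The 5 Tfrc sites lie in the 3′ UTR on the plus strand, the first at chr16:32631161-32631187 and the last at chr16:32631711-32631737.
Fth1: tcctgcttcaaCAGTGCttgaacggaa
Slc40a1: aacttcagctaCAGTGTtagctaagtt
Tfrc site 1: tttatcagtgaCAGAGTtcactataaa
Tfrc site 2: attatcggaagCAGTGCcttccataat
Tfrc site 3: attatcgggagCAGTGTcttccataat
Tfrc site 4: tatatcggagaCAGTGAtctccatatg
Tfrc site 5: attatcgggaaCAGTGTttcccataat

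Metallothionein genes are known to be switched on by zinc through metal response elements in their promoters, so the rat Mt1 promoter is shown beside its values. It comes from RefSeq (GRCr8, chr19:10832976-10833225, minus strand), whose promoter table held 5 of the 9 genes (Slc40a1, Slc39a8, Tfrc, Lcn2 and Mt1). The 250 bases before the start, 5′ to 3′ towards the gene, carry TGCACNC 3 times and TGCGCNC 3 times on either strand, in capitals and with no overlap. Of 33469 promoters of the same length, 10.3% held TGCACNC, 11.8% held TGCGCNC and 9 promoters (0.0269%), Mt1 included, held both together 6 times or more.
Mt1 promoter: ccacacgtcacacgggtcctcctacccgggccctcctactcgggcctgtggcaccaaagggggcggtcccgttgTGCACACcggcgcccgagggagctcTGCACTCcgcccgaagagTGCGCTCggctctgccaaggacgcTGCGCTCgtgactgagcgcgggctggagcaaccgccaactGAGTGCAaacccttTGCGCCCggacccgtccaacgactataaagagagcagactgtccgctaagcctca

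Levels are CPM (counts scaled to a common library total) scaled by TMM over all 23 rats, and fold changes are log2 values ± SE of the later over the earlier day or of SN− over SN+, from edgeR's quasi-likelihood test on the 2 groups alone. A gene was called when its Benjamini-Hochberg adjusted p over all genes tested was under 0.05. Rat libraries held 14854389 to 18742274 counts. Their cell content differed strongly. The 10 genes of an erythroid marker list, hemoglobin genes among them, took 0.200% to 39.1% of the counts of a library, and skeletal muscle markers summed to 24.5 to 567 CPM at day 3 and to 2705 to 46459 CPM at day 7. In bulk tissue, fewer cells of a type and less RNA per cell cannot be told apart.

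Hmox1 had the largest fold change of the 9 from day 3 to either later day, in both nerve groups. In SN+ tissue it stood at 2149, 591 and 579 CPM in the 3 rats of day 3. At day 7 its level was 91.8, 85.5, 23.8 and 242 CPM, and at day 14 it was 24.8, 65.3, 44.4 and 39.7 CPM. Every rat of day 3 was above every rat of day 7 and day 14. In SN− tissue the 4 rats of day 3 had 506, 811, 570 and 1336 CPM, those of day 7 had 36.0, 324, 110 and 133 CPM, and those of day 14 had 118, 73.2, 50.1 and 68.6 CPM. Here too no rat of day 3 overlapped with a later day. Over days 3 to 14, Hmox1 fell by 4.64 ± 0.60 on the log2 scale in SN+ tissue (edgeR adjusted p = 0.0258) and fell by 3.42 ± 0.41 in SN− tissue (edgeR adjusted p = 0.00253). Its values for day 7 over day 3, -3.29 ± 0.83 in SN+ and -2.43 ± 0.64 in SN−, had edgeR adjusted p = 0.0626 and 0.0503. With DESeq2 both of these passed, at adjusted p = 0.000274 and 0.000856. The SN+ call from day 3 to day 14 was lost when SN+ day 3 replicate 3 or any of SN+ day 14 replicates 1, 3 and 4 was left out (adjusted p = 0.0710 to 0.11), while the fold change stayed between -4.94 and -3.74.

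**Figure D1:**
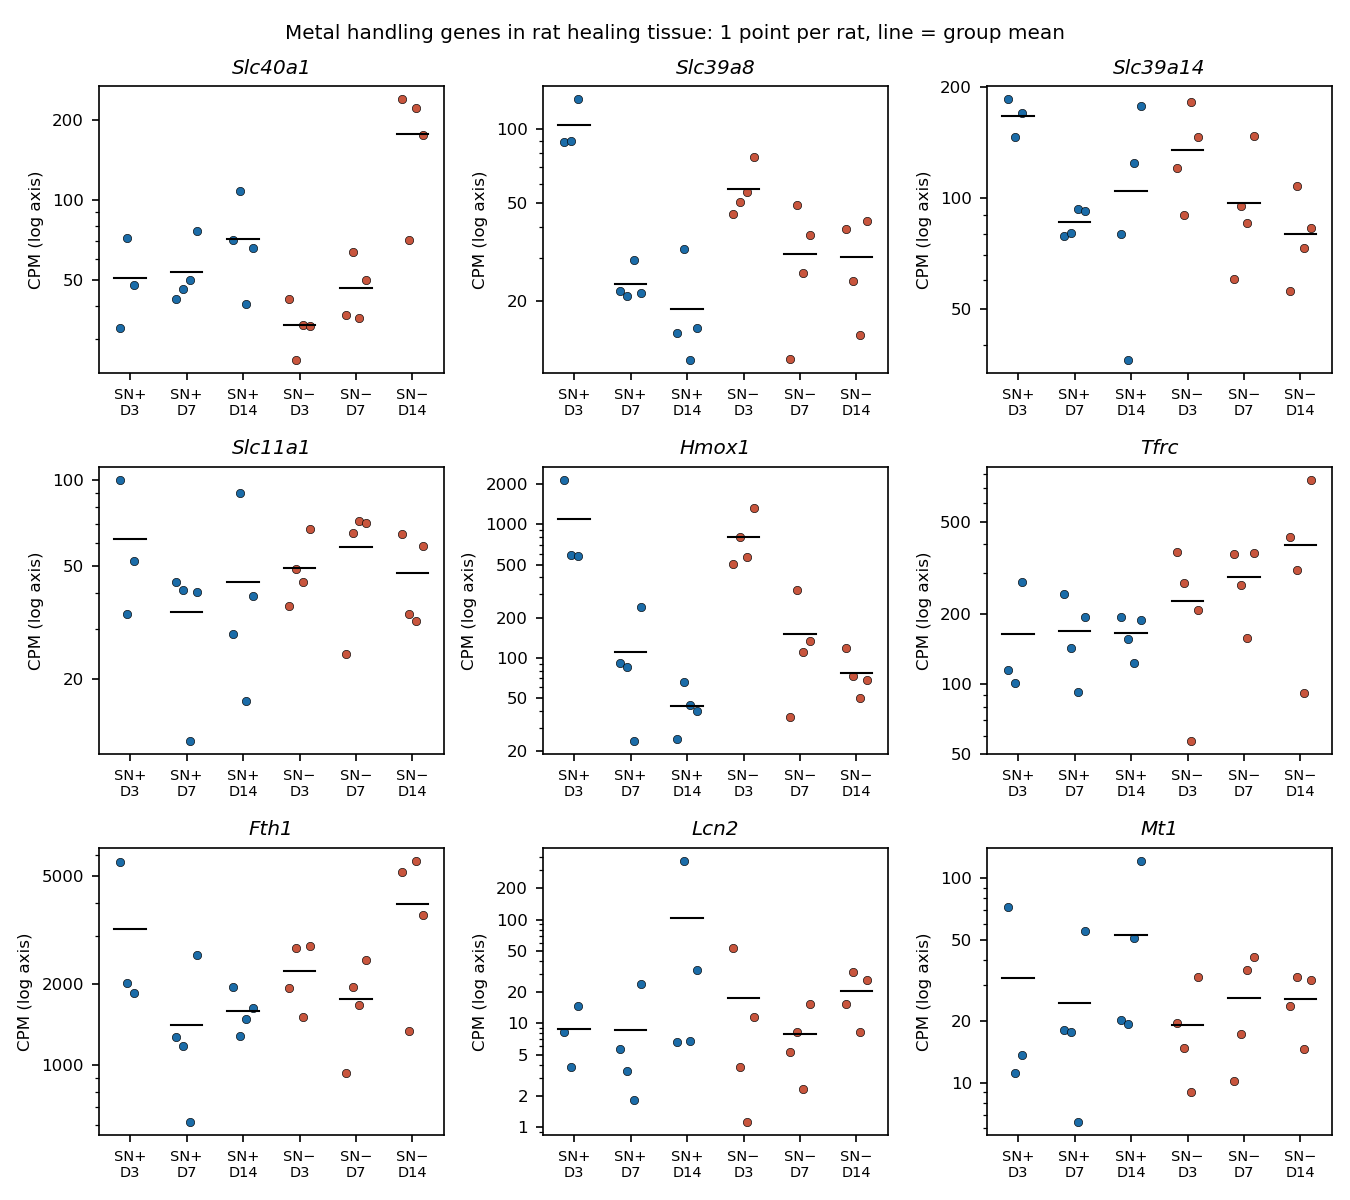
Level of each of the 9 genes in rat healing tissue (CPM, log axis) by nerve group and day, with 1 point per rat and a line at the group mean. Hmox1 of day 3 (506 to 2149 CPM) lies above every later rat (23.8 to 324 CPM), and Slc40a1 is highest in 3 of the 4 SN− rats of day 14 (176 to 239 CPM).

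The level of Hmox1 was also set against that of macrophage markers in the same rat. Summed CPM of 12 macrophage markers had medians of 6377, 5215 and 3109 at days 3, 7 and 14 in SN+ tissue and of 5692, 9702 and 4703 in SN− tissue. Of these markers, Marco was at 0 in 22 of 23 rats. Lyz2, at a mean of 4326 CPM over the 23 rats, made up most of the sum, with Csf1r next at 449 CPM. Set against that sum, Hmox1 amounted to 7.68% to 27.2% at day 3, to 0.938% to 4.25% at day 7 and to 0.613% to 2.33% at day 14 over both nerve groups. Of the 11 macrophage markers tested in each comparison, edgeR called 4 lower and 0 higher from day 3 to day 14 in SN+ tissue, and 4 lower and 1 higher in SN− tissue. Of all genes tested, 3.09% were called lower in SN+ tissue, and 14.6% lower and 8.89% higher in SN− tissue. The 4 lower markers, Msr1, Mrc1, Mertk and Cd14, were the same in both, and their part in the fall of Hmox1 was not tested. Over the 23 rats Hmox1 had r = 0.50 with the summed macrophage markers (within groups 0.65). It had 0.46 (-0.58) with the keratinocyte and -0.15 (0.56) with the lymphocyte markers. Hmox1 also ran opposite to the summed skeletal muscle markers (r = -0.72, within groups -0.14). Of these, edgeR called 9 of 10 higher from day 3 to day 14 in SN+ tissue, where 5.78% of all genes were called in either direction. In SN− tissue it called 5 of 9 higher, beside 8.89% of all genes. The part of muscle content was not tested either. The 3 genes most like Hmox1 over the 23 rats, among 12101 genes with a mean of at least 5 CPM, were Ccdc93 (Pearson r of log2 CPM 0.95), Mif, a cytokine (0.94), and Eno1, a glycolytic enzyme (0.94). On the deviations from the group means these were 0.75, 0.70 and 0.68. All likeness values here share the libraries and the scaling and carry no test.

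Slc39a8 was also highest at day 3. In SN+ tissue its level was 88.8, 89.9 and 133 CPM at day 3, 21.9, 21.0, 29.5 and 21.5 CPM at day 7, and 14.8, 32.5, 11.5 and 15.5 CPM at day 14. No rat of day 3 overlapped with a later day. It fell by 2.09 ± 0.21 on the log2 scale to day 7 (edgeR adjusted p = 0.00367) and by 2.46 ± 0.38 to day 14 (edgeR adjusted p = 0.0310). The call to day 7 held in each fit with 1 rat left out, and the call to day 14 was lost in 6 of 7 such fits (adjusted p = 0.0538 to 0.12), all except the one without SN+ day 14 replicate 2. In SN− tissue the level was 45.1, 50.6, 55.7 and 77.1 CPM at day 3, 11.6, 49.2, 25.9 and 37.0 CPM at day 7, and 39.4, 24.1, 14.6 and 42.4 CPM at day 14. There the day 7 rats overlapped with day 3, the day 14 rats did not, and the log2 values over day 3, -0.90 ± 0.40 and -0.97 ± 0.34, were not called by edgeR (adjusted p = 0.18 and 0.0696). With the summed macrophage markers Slc39a8 had r = 0.51 (within groups 0.63), and with the keratinocyte markers 0.60 (0.14). Slc39a8 ran opposite to the summed skeletal muscle markers over the 23 rats (r = -0.83, within groups -0.64). Of these, edgeR called 10 of 10 higher from day 3 to day 7 in SN+ tissue, beside 6.67% of all genes called in either direction. The part of muscle content in the fall was not tested. The genes most like Slc39a8 were Fam91a1, Sec23b and Ywhab (r = 0.90 each), of which Sec23b codes for a protein of the vesicle coat that leaves the endoplasmic reticulum.

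Slc39a14, the close relative of Slc39a8, had a smaller fall. Its SN+ levels were 186, 146 and 170 CPM at day 3 and 78.9, 80.5, 93.4 and 92.4 CPM at day 7, without overlap. At day 14 they spread from 36.3 to 178 CPM and overlapped with both. It fell by 0.91 ± 0.14 on the log2 scale from day 3 to day 7 (edgeR adjusted p = 0.0170), a call lost without SN+ day 3 replicate 3 (0.0776) or SN+ day 7 replicate 1 (0.0705). With all 23 rats in 1 fit it was lost as well (edgeR adjusted p = 0.119). In SN− tissue the level was 121, 89.9, 182 and 146 CPM at day 3 and 55.8, 108, 73.0 and 82.8 CPM at day 14, a log2 value of -0.81 ± 0.26 that edgeR did not call (adjusted p = 0.0592). Among the genes most like it were PCOLCE2, as the table spells it, an enhancer of procollagen processing (r = 0.82), and Steap1, of the metalloreductase family (0.79).

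Slc40a1 moved the other way, and late. In SN− tissue its level was 42.5, 25.0, 33.8 and 33.6 CPM at day 3, 36.9, 63.6, 36.1 and 49.9 CPM at day 7, and 239, 70.4, 221 and 176 CPM at day 14. Each rat of day 14 was above each rat of the earlier days, and SN− day 14 replicate 2 was the lowest of its group. Slc40a1 rose by 2.35 ± 0.38 on the log2 scale from day 3 to day 14 (edgeR adjusted p = 0.00578). This call held under every alternative and with any rat left out, at log2 values of 1.83 to 2.61. The step from day 7 to day 14 was 1.93 ± 0.39 and was not called by edgeR (adjusted p = 0.104), although it passed with DESeq2, with all 23 rats in 1 fit and without SN− day 14 replicate 2 (adjusted p = 0.000257, 0.0233 and 0.028). In SN+ tissue the levels overlapped at all days, 33.1, 71.7 and 47.8 CPM at day 3, 42.3, 46.1, 50.02 and 76.4 CPM at day 7, and 70.6, 108, 40.7 and 65.6 CPM at day 14. The log2 value from day 3 to day 14 in SN+ tissue was 0.49 ± 0.39 (edgeR adjusted p = 0.445).

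The SN− rat of day 14 with the lowest Slc40a1, replicate 2, was also the lowest of its group in blood and lymphocyte markers. It was the highest of its group in osteoblast markers (7090 CPM, others 845 to 4372 CPM) and osteoclast markers (12560 CPM, others 1182 to 12296 CPM). The erythroid list took 20.9%, 0.200%, 39.1% and 25.2% of the counts in SN− day 14 replicates 1 to 4, against 1.09% to 15.7% in the SN+ rats of day 14. Summed lymphocyte markers were 940, 127, 558 and 246 CPM in the same 4 rats. From day 3 to day 14 in SN− tissue, edgeR called 4 of the 8 lymphocyte markers higher, where 8.89% of all genes were called higher. Over the 23 rats Slc40a1 followed the summed lymphocyte markers at r = 0.76 (within groups 0.67), the neutrophil markers at 0.67 (0.70), the erythroid markers at 0.43 (0.47) and the macrophage markers at -0.06 (0.29). With the osteoblast markers it had r = 0.50 (0.29) and with the osteoclast markers 0.40 (0.06). The part of these cells in the rise was not tested. With the erythroid list left out before scaling, Slc40a1 was called as before. The most alike genes were Evl, a regulator of actin (r = 0.94), Smg1, a kinase of nonsense-mediated decay (0.93), and RGD1563888 (0.92).

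Fth1, the ferritin heavy chain, spread widely within groups. Its level was 5673, 2024 and 1851 CPM in the SN+ rats of day 3, 1275, 1181, 618 and 2565 CPM at day 7, and 1952, 1287, 1489 and 1635 CPM at day 14. In SN− rats it was 1935, 2715, 1516 and 2754 CPM at day 3, 937, 1955, 1677 and 2457 CPM at day 7, and 5172, 1338, 5699 and 3604 CPM at day 14. At every step the groups overlapped, and no comparison of Fth1 was called by edgeR. The 3 high SN− rats of day 14 stood above all 4 SN+ rats, and replicate 2 stood among them. Without it, the SN− change from day 3 to day 14 was called (edgeR adjusted p = 0.0299), at a log2 value of 1.08 against 0.79 with all rats. Fth1 followed the summed erythroid markers over the 23 rats at r = 0.78 (within groups 0.80), and replicate 2 of SN− day 14 was also the rat with the lowest erythroid share. Ftl1, the light chain, moved with Fth1 (r = 0.87). The gene most like Fth1 was LOC689130 (r = 0.99), followed by Myl6 and Glul. Ferritin heavy chain genes have near-identical copies, and the expected counts, most of them not whole, may share reads among copies. How reads were assigned was not examined, so the Fth1 level is uncertain to that extent.

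Tfrc, the gene of iron uptake, kept overlapping levels over the days. In SN+ rats it was 115, 101 and 275 CPM at day 3, 245, 143, 92.6 and 194 CPM at day 7, and 195, 156, 124 and 188 CPM at day 14. In SN− rats it was 370, 272, 56.8 and 209 CPM at day 3, 363, 268, 157 and 367 CPM at day 7, and 432, 309, 91.1 and 757 CPM at day 14. No change over days was called, with log2 values of -0.01 to 0.76. Tfrc ran with the summed osteoclast markers (r = 0.68, within groups 0.62), and the gene most like it was Nfatc1, the master transcription factor of osteoclasts (r = 0.84), followed by Oxr1 and Hyal1 (0.81 each).

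Slc11a1, Lcn2 and Mt1 were called in none of the comparisons. Slc11a1 lay between 12.1 and 99.8 CPM over all 23 rats, and its groups overlapped in each comparison. It followed the summed macrophage markers, mostly Lyz2, more closely than any other member (r = 0.86, within groups 0.88), at 0.543% to 1.28% of that sum in each rat. Its most alike genes Adap1, Myo1f and Ncf1 (r = 0.95, 0.94 and 0.92) include a subunit of the phagocyte NADPH oxidase. None of its day comparisons was called, with log2 values of -0.81 to 0.37.

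Lcn2 had 8.24, 3.76 and 14.6 CPM in the SN+ rats of day 3, 5.64, 3.44, 1.84 and 23.7 CPM at day 7, and 6.56, 366, 6.72 and 32.5 CPM at day 14. The rat at 366 CPM was also the one with the highest summed neutrophil markers of all 23, 8082 CPM. Over all rats Lcn2 and that sum had r = 0.80 (within groups 0.76), and the most alike genes were the neutrophil granule genes Olfm4, Elane and Mpo (r = 0.92, 0.91 and 0.90), of which Elane and Mpo are in the list itself. Lcn2 also ran with the lymphocyte (r = 0.68, within groups 0.61), osteoclast (0.47, 0.55) and macrophage markers (0.39, 0.71). In SN− rats Lcn2 was 53.6, 3.80, 1.12 and 11.5 CPM at day 3, 5.23, 8.18, 2.35 and 15.5 CPM at day 7, and 15.4, 31.5, 8.28 and 26.2 CPM at day 14. In SN+ tissue the log2 value from day 7 to day 14, 3.61 ± 1.51, was not called by edgeR (adjusted p = 0.519) and was 0.87 without the rat at 366 CPM.

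Mt1 lay between 6.46 and 121 CPM. Its SN+ levels were 72.7, 11.1 and 13.8 CPM at day 3, 18.1, 17.8, 6.46 and 55.5 CPM at day 7, and 20.2, 19.4, 51.0 and 121 CPM at day 14. Its SN− levels ran from 9.09 to 33.0 CPM at day 3, from 10.2 to 41.1 CPM at day 7 and from 14.7 to 32.9 CPM at day 14. All groups overlapped, and no change over days was called (log2 values of -0.38 to 1.15). The gene most like Mt1 was Mt2A, another metallothionein (r = 0.92, within groups 0.91), whose promoter of the same length carried the 2 motifs 4 times in all. Metallothionein copies are alike in sequence, so reads may be split among them.

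**Figure D2:**
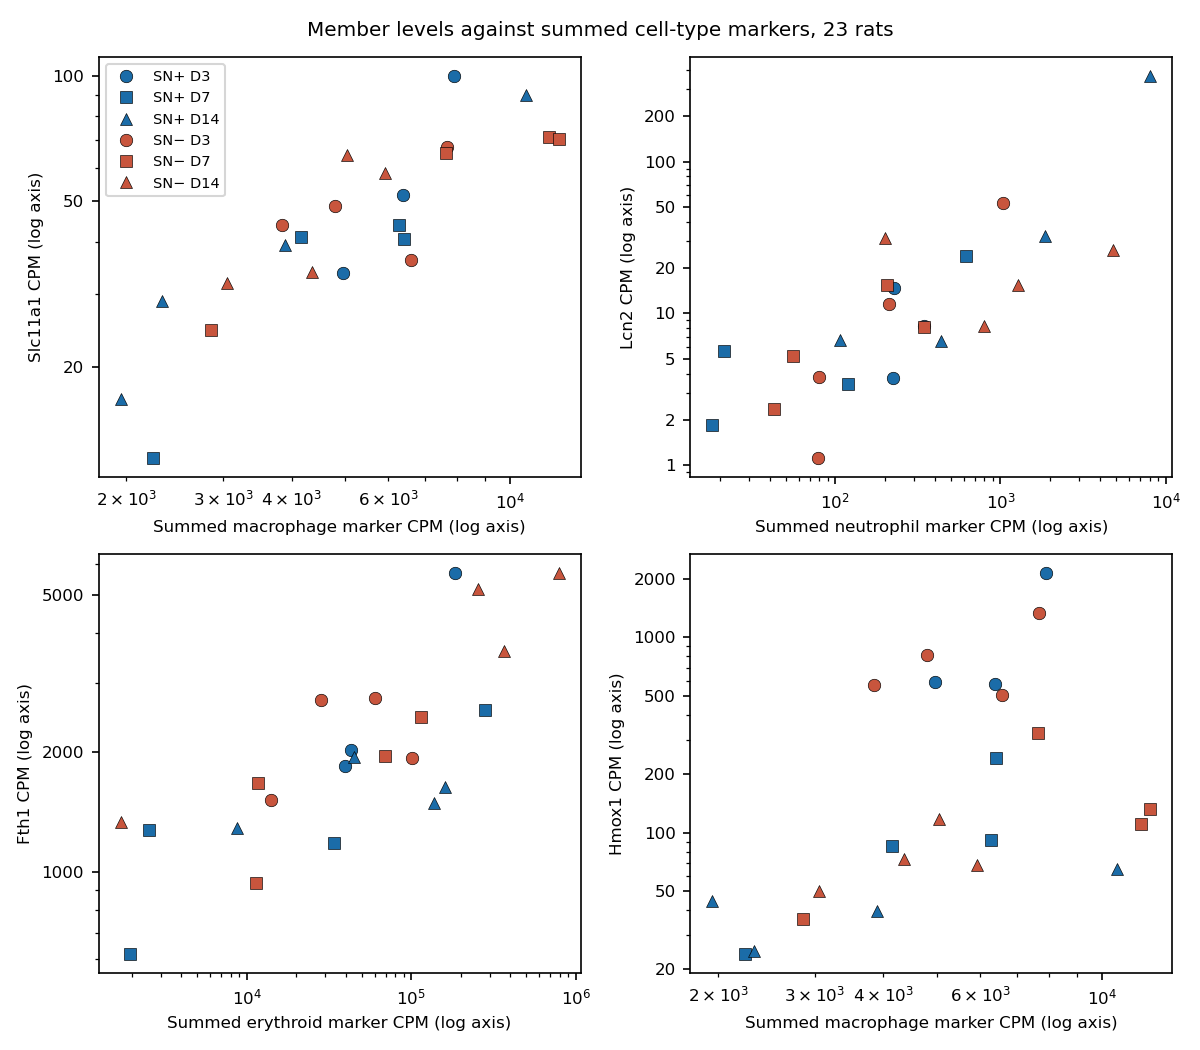
Level of 4 genes against a summed marker list in the same rat (CPM, both axes log), with 23 rats coloured by nerve group and shaped by day. Slc11a1 rises with the macrophage markers (r = 0.86), Lcn2 with the neutrophil markers (0.80) and Fth1 with the erythroid markers (0.78), while the Hmox1 points of day 3 lie above those of later days at like macrophage marker sums. The macrophage marker sum is mostly Lyz2.

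Counted over the 9 genes, calls were few, and since the genes were chosen on these comparisons nothing is read from the counts. From day 3 to day 7 in SN+ tissue, 2 of 9 were called, both lower, where edgeR called 6.67% of all genes tested and 1.79% as lower. There 3 of 9 did not overlap and 3 were under an unadjusted p of 0.05, beside 25.4% and 24.8% of all genes. In SN+ tissue 2 of 9 were called lower from day 3 to day 14, where 5.78% of all genes were called and 3.09% as lower. There 2 of 9 did not overlap and 2 were under an unadjusted p of 0.05, beside 24.5% and 28.2%. In SN− tissue 1 was called higher and 1 lower from day 3 to day 14, where 23.5% of all genes were called, 8.89% as higher and 14.6% as lower. There 3 of 9 did not overlap and 4 were under an unadjusted p of 0.05, beside 26.7% and 38.8%. From day 3 to day 7 in SN− tissue, edgeR called 0 of 9 (1 at an unadjusted p under 0.05, and 1 with DESeq2), where 10.5% of all genes were called and 28.8% were under an unadjusted p of 0.05. There 1 of 9 did not overlap, beside 21.7%. From day 7 to day 14, edgeR called 0 of 9 in SN+ tissue (1 at an unadjusted p under 0.05, and 0 with DESeq2) and 0 of 9 in SN− tissue (3 at an unadjusted p under 0.05, and 1 with DESeq2), where 0.0202% and 0.0138% of all genes were called and 9.42% and 23.5% were under an unadjusted p of 0.05. There 0 and 1 of 9 did not overlap, beside 5.78% and 12.3%. The median log2 value of the 9 was -0.81 from day 3 to day 7 in SN+ tissue, beside 0.05 for all genes, and 0.19 from day 3 to day 14 in SN− tissue, beside -0.05.

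The transection was compared at each day to ask whether loss of sensory input shifts these genes. At day 3, Slc39a8 was lower in each SN− rat (45.1 to 77.1 CPM) than in each SN+ rat (88.8 to 133 CPM), at -0.88 ± 0.23 on the log2 scale, and this was not called by edgeR (adjusted p = 1.00, unadjusted 0.00647). It was the 1 member of 9 without overlap there, beside 1.61% of all genes. At day 7 all 9 members overlapped between the nerve groups, where 0.754% of all genes did not. At day 14 Slc40a1 (1.30 ± 0.42), Fth1 (1.30 ± 0.45), Tfrc (1.23 ± 0.53) and Hmox1 (0.82 ± 0.33) had higher means in SN− tissue, each with overlap and with edgeR adjusted p = 0.519. Mean levels at day 14 were 71.2 ± 27.7 CPM in SN+ and 176 ± 75.6 CPM in SN− tissue for Slc40a1 (SD, n = 4 each), and 1591 ± 280 and 3953 ± 1958 CPM for Fth1. These 4 were under an unadjusted p of 0.05, as were 9.32% of all genes, and 3.37% of all genes did not overlap. Scaled by the library total, which moves the median of all genes to -0.41 at day 14, the values were 0.67 for Slc40a1, 0.68 for Fth1, 0.83 for Tfrc and 0.40 for Hmox1.

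edgeR called 0 members and 0 of all genes (0% of those tested) for the transection at day 3, day 7 and day 14. At an unadjusted p under 0.05 there were 1, 0 and 4 members, beside 0.83%, 1.46% and 9.32% of all genes, and DESeq2 called 0 members at each day. Pooled over days, Tfrc was 0.85 ± 0.31 higher in SN− tissue on the log2 scale (edgeR adjusted p = 0.86), the 1 member under an unadjusted p of 0.05, beside 5.11% of all genes, and 0 members were called by edgeR or DESeq2. For the interaction of nerve and day, edgeR and DESeq2 called 0 members, and Slc40a1, Slc39a8 and Fth1 had unadjusted p = 0.00291, 0.0311 and 0.0474, each with edgeR adjusted p = 0.998, and 3.0% of all genes were under an unadjusted p of 0.05. The rise of Slc40a1 from day 3 to day 14, called in SN− tissue and not in SN+ tissue, was thus not shown to differ between them: its difference was 1.90 ± 0.51 on the log2 scale (edgeR adjusted p = 0.751).

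**Figure D3:**
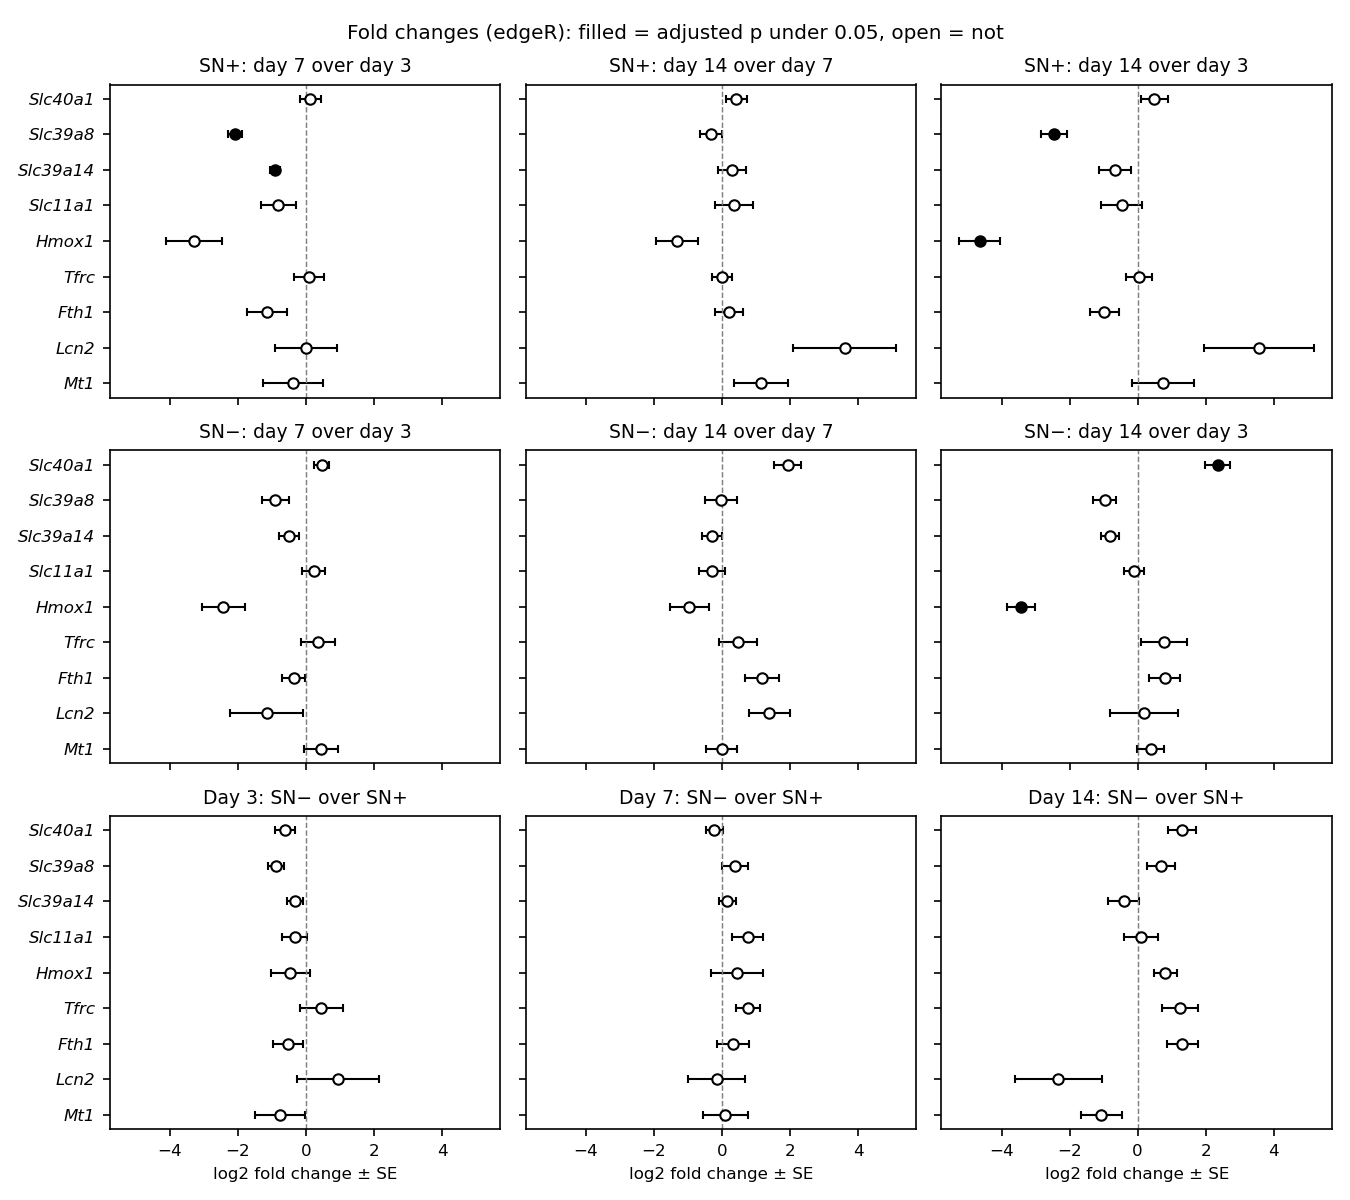
Log2 fold change ± SE of the 9 genes in the 9 comparisons of rat groups (edgeR), filled where the adjusted p was under 0.05. The filled points are Slc39a8 and Slc39a14 (day 7 over day 3) and Slc39a8 and Hmox1 (day 14 over day 3) in SN+ tissue, and Slc40a1 and Hmox1 (day 14 over day 3) in SN− tissue, and the bottom row of nerve comparisons has none.

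Other genes of the same pathways were read from lists of 77 genes, 75 of which were in the rat table. Between the nerve groups edgeR called 0 of 67 tested at day 3, 0 of 66 at day 7 and 0 of 66 at day 14. At an unadjusted p under 0.05 there were 1, 1 and 8, beside 0.83%, 1.46% and 9.32% of all genes. From day 7 to day 14 edgeR also called none, of 68 in SN+ and 64 in SN− tissue, beside 0.0202% and 0.0138% of all genes. There 12 and 10 were under an unadjusted p of 0.05, beside 9.42% and 23.5% of all genes. Against day 3 edgeR called 1 higher and 2 lower of 67 to day 7 in SN+ tissue, 2 higher and 7 lower of 69 to day 14, 1 higher and 4 lower of 66 to day 7 in SN− tissue, and 0 higher and 14 lower of 65 to day 14. These are 4.48%, 13.0%, 7.58% and 21.5% of the genes tested, beside 6.67%, 5.78%, 10.5% and 23.5% of all genes. Over all genes the calls were 733 higher and 269 lower, 406 and 465, 537 and 987, and 1284 and 2112 in the same order, so no direction is read from the lists.

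Among targets of NRF2, a transcription factor that also drives Hmox1, 2 of 8 were called lower from day 3 to day 14 in each nerve group, Gclc, which makes glutathione, and Prdx1, a peroxidase. Of all genes tested, 3.09% were called lower in SN+ tissue and 14.6% in SN− tissue. Gclc went from 69.4 ± 22.7 to 28.4 ± 3.38 CPM in SN+ tissue (SD, n = 3 and 4) and from 63.9 ± 10.9 to 29.0 ± 7.85 CPM in SN− tissue (SD, n = 4 each). Prdx1 went from 443 ± 188 to 154 ± 14.7 CPM in SN+ and from 451 ± 89.5 to 145 ± 7.25 CPM in SN− tissue. Gclc was also called lower at day 7 in both nerve groups, and Prdx1 and Txnrd1, a thioredoxin reductase, at day 7 in SN− tissue. At day 7 against day 3, 6.67% of all genes were called in either direction in SN+ tissue and 10.5% in SN− tissue.

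The list of zinc transport and buffering held 25 genes. In SN− tissue from day 3 to day 14, 8 of 19 tested were called lower and 0 higher, beside 14.6% and 8.89% of all genes. The smallest p were for Slc39a6 (-0.94 ± 0.16 on the log2 scale), Slc39a9 (-0.56 ± 0.12) and Slc30a7 (-0.76 ± 0.19). In SN+ tissue 2 of 21 were called lower, beside 3.09% of all genes, again Slc39a6 (-1.37 ± 0.16) and Slc39a9 (-0.59 ± 0.12), and Slc30a2 was called higher at a level of only 1.10 ± 0.69 CPM at day 14. At day 7 against day 3, edgeR called 1 of 20 lower in SN− tissue, Slc30a5 (-0.40 ± 0.09), where 10.5% of all genes were called. In SN+ tissue it called 0 of 20, beside 6.67% of all genes, and 6 were under an unadjusted p of 0.05, beside 24.8%.

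In the copper list, Slc31a1, the copper importer, went from 117 ± 26.8 to 47.8 ± 3.09 CPM in SN+ tissue and from 128 ± 11.8 to 57.2 ± 14.9 CPM in SN− tissue from day 3 to day 14, and both were called. Its relative Slc31a2 was called lower in SN− tissue (-1.06 ± 0.17). From day 3 to day 14, 3.09% of all genes were called lower in SN+ tissue and 14.6% in SN− tissue. The other 4 genes of the copper list were called in none of the 4 comparisons with day 3.

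Among iron genes, Aco1, an iron-regulatory protein of those that bind the hairpins above, went from 91.6 ± 15.2 to 49.9 ± 6.96 CPM in SN+ tissue and from 95.2 ± 11.6 to 52.6 ± 7.67 CPM in SN− tissue from day 3 to day 14, and both were called by edgeR. Steap2, a metalloreductase, was called lower in SN+ tissue at day 7 (-1.14 ± 0.17) and day 14 (-1.38 ± 0.15). Pcbp1, an iron chaperone, was called lower in SN− tissue at day 14 (-0.55 ± 0.13), and Cp, the ferroxidase ceruloplasmin, was called higher there at day 7 (0.99 ± 0.22). Hjv, hemojuvelin, known from skeletal muscle and liver, was called higher in SN+ tissue, from 0.305 ± 0.250 CPM at day 3 to 45.6 ± 24.1 CPM at day 7 and 28.3 ± 21.4 CPM at day 14, together with 10 and 9 of 10 skeletal muscle markers. The lists were uptake and trafficking, storage and export, and regulation. Against day 3 in SN+ tissue, edgeR called 1 of 11, 0 of 4 and 1 of 8 at day 7, beside 6.67% of all genes. At day 14 it called 1 of 12, 0 of 4, and 1 higher and 1 lower of 8, beside 5.78%. In SN− tissue it called 0 of 11, 1 of 4 and 0 of 7 at day 7, beside 10.5%. At day 14 there it called 1 of 11, 0 of 4 and 1 of 7, beside 23.5%. Of 10 genes of heme and hemoglobin scavenging, edgeR called 0 in each day comparison, where 0.0138% to 23.5% of all genes were called. Between 1 and 3 had an unadjusted p under 0.05, beside 9.42% to 38.8% of all genes.

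In the macrophages, none of the 9 genes was called between LPS with CGRP and LPS alone. The cells carried Cd68, Csf1r, Lyz2 and Cd14, and 4 macrophage markers were near 0, C1qa, C1qb, C1qc and Mertk (at most 0.0708 CPM), while Marco was at 0 in all 11 cultures. Levels are CPM scaled by TMM over the 11 cultures, and values of log2(CPM + 0.5) were tested with limma on 11902 genes. Tfrc was at 592, 613 and 627 CPM with LPS (lowest, median and highest of 6) and at 617, 624, 624, 611 and 619 CPM with CGRP. Hmox1 was at 249.6, 259 and 285 CPM with LPS and at 269, 258, 268, 265 and 258 CPM with CGRP. Fth1 was at 5151, 5271 and 5403 CPM with LPS and at 5254, 5206, 5216, 5296 and 5076 CPM with CGRP. The groups overlapped for each of the 9 genes, and 1.24% of all genes did not overlap.

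Slc39a8 had the largest difference of the 8 genes tested, 9.80, 10.9 and 11.4 CPM with LPS and 10.1, 10.1, 10.5, 9.03 and 10.3 CPM with CGRP, a log2 value of -0.09 ± 0.05 (limma adjusted p = 0.479). Lcn2 was at 22.7 ± 1.56 and 23.8 ± 1.95 CPM, Mt1 at 154 ± 3.62 and 151 ± 4.94 CPM, Slc11a1 at 238 ± 6.22 and 242 ± 2.96 CPM, and Slc39a14 at 75.5 ± 2.15 and 76.0 ± 1.20 CPM (SD, n = 6 and 5). The log2 values of the 8 lay between -0.09 and 0.07, with SE of 0.01 to 0.05. limma called 0 of 8 (0 at an unadjusted p under 0.05), edgeR and DESeq2 on recovered reads called 0 as well, and limma called 0.0168% of all genes, with 10.8% at an unadjusted p under 0.05. Slc40a1, at 0.391 to 0.596 CPM with LPS and 0.307 to 0.506 CPM with CGRP, was below the filter on low values and was not tested. Of the 50 genes of the other lists tested in these cells, limma called 0, with 6 at an unadjusted p under 0.05.

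**Figure D4:**
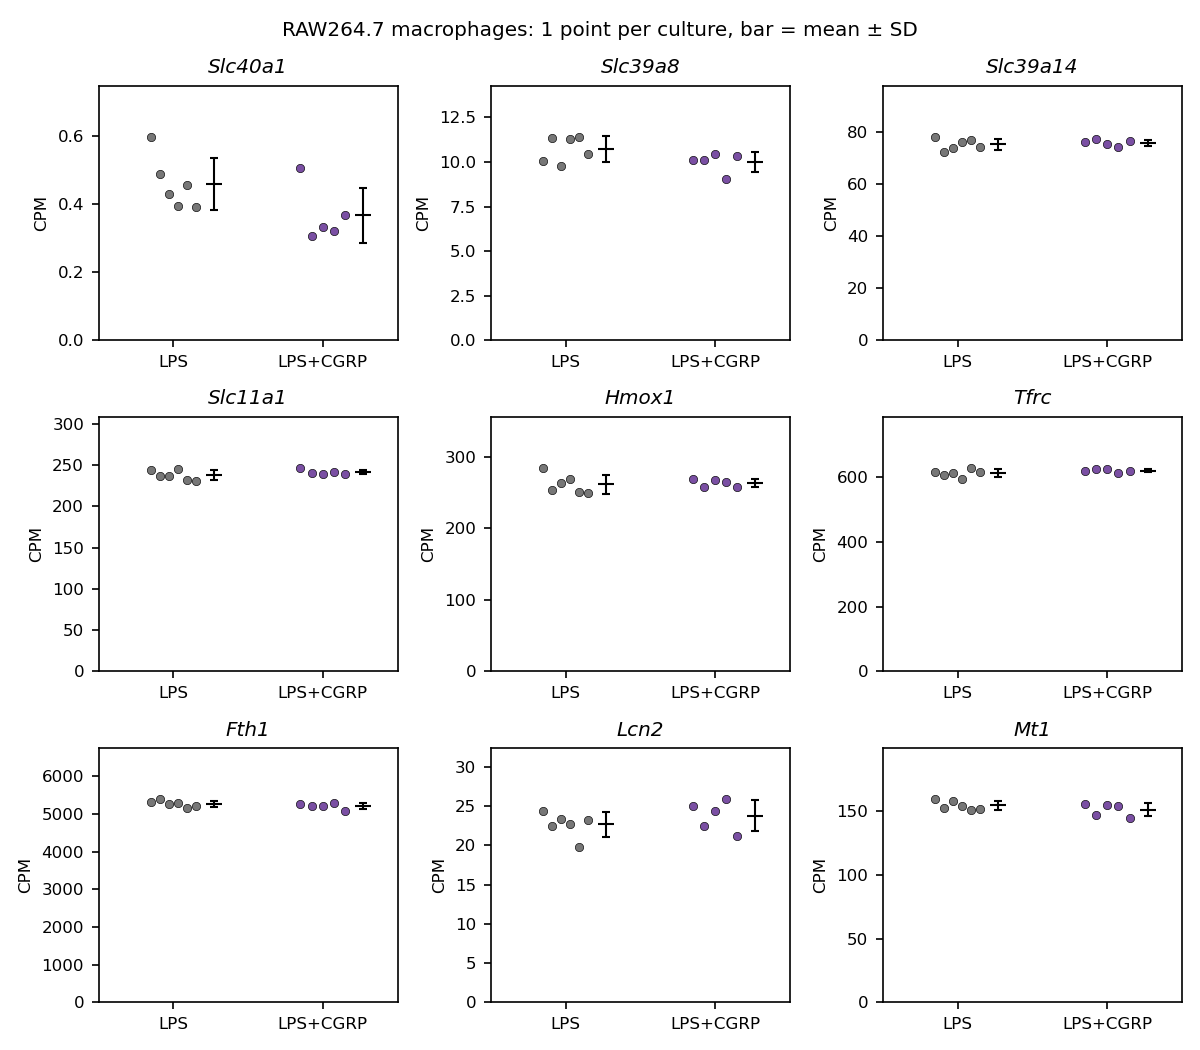
Level of the 9 genes in RAW264.7 macrophages after 6 h of LPS or LPS with CGRP (CPM, linear axis from 0), with 1 point per culture and the mean ± SD beside it. The 2 groups overlap for each gene, for example Tfrc at 592 to 627 CPM with LPS and 611 to 624 CPM with CGRP.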

How the data were processed

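RNA-seq of 23 rats and 11 macrophage cultures was taken from the tables that the authors deposited. The rat tables hold an expected count per gene, made by the authors from DNBSEQ reads aligned with HISAT to mRatBN7.2 (Bowtie2 is also named in the submitters' notes), with the counting program not given in the sources used here, and 37.0% of values are whole. Expected counts were rounded. The macrophage table holds a deposited signal per gene and run (Cutadapt, STAR, mm10, featureCounts per the authors) scaled by the authors with a single factor for each run. Whole reads were recovered from it for 100% of positive values within 0.01, and the 2 runs of each culture were summed. Totals were 14854389 to 18742274 counts per rat and 55614185 to 71538840 reads per culture.

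Rat counts were filtered with filterByExpr, TMM-scaled, and fitted in edgeR 4.0.16 (quasi-likelihood F test) on the groups compared alone. Because the macrophage values are not counts, log2(CPM + 0.5) of genes with at least 0.5 CPM in at least 5 cultures went into limma 3.58.1 (trend). Calls required 0.05 after Benjamini-Hochberg adjustment, and SEs of edgeR were derived from its F statistic. Where nothing says that samples came from separate cultures, p-values measure the spread between these samples, which may be technical. No replicate pair differed by less than sampling noise. Scripts were first tested on simulated data. Alternatives were DESeq2 1.42.0, RLE or library-total scaling, other filters and pseudocounts, single runs, a replicate block, all rats in 1 fit and each sample left out. Leaving out the erythroid list was added after the data had been seen. The members and all lists were chosen with earlier results of these data known. All 9 members are named in each comparison, from each other list up to 3 called genes per direction, by p, and as most alike the 3 genes with the highest r, of which 1 is not reported here. Mouse and rat sequences come from GENCODE vM21 and RefSeq GRCr8.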

Additional observations from a re-analysis of the deposited data

Results flagged for a closer look

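Of 63 gene and group combinations of 4 to 6 samples, 5 had a sample whose gap to the next was a larger part of the group's range than chance gives in about 1 of 20 groups (Dixon's test). Lcn2 was at 366 CPM in SN+ day 14 replicate 2, against 6.56 to 32.5 CPM in the other 3 rats. Slc39a8 was at 29.5 CPM in SN+ day 7 replicate 3, against 21.0 to 21.9 CPM. Slc11a1 was at 12.1 CPM in the same rat, against 40.5 to 44.0 CPM, and this rat also had the lowest summed macrophage markers of its group (2238 CPM). Slc11a1 was at 24.5 CPM in SN− day 7 replicate 1, against 65.1 to 71.5 CPM, and that rat likewise had the lowest summed macrophage markers of its group (2857 CPM). Slc39a8 was at 9.03 CPM in LPS+CGRP replicate 4, against 10.1 to 10.5 CPM.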

How the results depend on the processing

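Counts of members called moved under some alternatives, and no called value changed sign. From day 3 to day 7 in SN+ tissue the 2 calls became 1 (Slc39a8) with the replicate block and 3 with DESeq2, which added Hmox1, while library-total scaling or all 23 rats in 1 fit gave 2 with Hmox1 in place of Slc39a14. They were 1 to 2 with 1 rat left out, 1 without SN+ day 3 replicate 3 or SN+ day 7 replicate 1. From day 3 to day 14 in SN+ tissue the 2 calls became 0 with the block and 0 to 2 with 1 rat left out, 0 without SN+ day 3 replicate 3 or SN+ day 14 replicate 1, 3 or 4. In SN− tissue from day 3 to day 7, 1 call (Hmox1) replaced 0 with library-total scaling, DESeq2 or all 23 rats in 1 fit, with 0 to 1 in fits with 1 rat left out (1 without SN− day 7 replicate 2). From day 7 to day 14 in SN− tissue, 1 call (Slc40a1) replaced 0 with DESeq2 or all 23 rats in 1 fit, with 0 to 1 in fits with 1 rat left out (1 without SN− day 14 replicate 2). From day 3 to day 14 in SN− tissue DESeq2 gave 4 calls in place of 2, and fits with 1 rat left out gave 2 to 4, 4 without SN− day 14 replicate 2. The cause was not tested. Leaving out the erythroid list, chosen after seeing the data, moved none of these counts. Without SN+ day 3 replicate 1, the uncalled transection value of Hmox1 at day 3 went from -0.46 to 0.44, and without SN+ day 14 replicate 2 that of Lcn2 at day 14 went from -2.33 to 0.33.

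Equal replicate numbers were not taken as pairs, since in no comparison were all same-number correlations over 0.1 (3 of 4 for the transection at day 7, 2 of 5 for CGRP). With so few pairs this rule cannot exclude pairing. For the transection at day 7 the same-number values were 0.03 to 0.31, with a mean of 0.18 beside -0.06 for other numbers. With the replicate block, calls over all genes went from 1002 to 122 and from 871 to 0 in SN+ tissue (day 3 to day 7, and to day 14), from 3 to 0 there and from 2 to 0 in SN− tissue from day 7 to day 14, from 1524 to 2 in SN− tissue from day 3 to day 7, and from 2 to 19 for CGRP. DESeq2 gave 2808, 325, 3375, 3217 and 1991 in those 5 rat comparisons in the order SN+ day 3 to 7, day 7 to 14 and day 3 to 14, then SN− day 3 to 7 and day 7 to 14, and 0, 1 and 95 for the transection at days 3, 7 and 14, 1 pooled over days and 73 for CGRP, where edgeR gave 5. All 23 rats in 1 fit gave 2606 (SN+ day 3 to 14), 2287 (SN− day 3 to 7) and 927 (SN− day 7 to 14). Library-total scaling gave 507 higher and 72 lower against 733 and 269 (SN+ day 3 to 7), 358 and 189 against 406 and 465 (SN+ day 3 to 14), 308 and 876 against 1284 and 2112 (SN− day 3 to 14), 13 against 3 and 21 against 2 (day 7 to 14 in SN+ and SN−), and 10 against 2 for CGRP. For CGRP a stricter filter gave 14, and single runs 1 and 6. With 3 or 4 rats in a group, 0 calls for the transection do not show that levels were equal.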
